A study of Homo sapiens with 14 samples.

Results

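The 77 genes examined encode the proteins of the cytosolic ribosome, 31 of the small subunit and 46 of the large subunit. They were chosen by name alone: a symbol of RPL or RPS followed by a number, with or without A or X, or 1 of RPLP0, RPLP1, RPLP2 and RPSA. The same 77 symbols were present among the 44591 genes of the LNCaP table and the 24199 features of the DU145 table. The rule itself uses no measured value. FAU, whose product is also a ribosomal protein, and paralogs with an L at the end of the symbol fell outside the rule and are described as companions.

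RNA sequencing covered 2 prostate cancer cell lines. LNCaP is an androgen-responsive line. Its parental cells (control, 1 library) were set against LNCaP-ENZ cells (1 library), grown with enzalutamide, a prostate cancer drug, at 20 µM for 30 days according to the series description. DU145 is a line that grows without androgens. DU145 cells with a control hairpin (shCON, n = 3) were set against cells carrying a hairpin to PAX6, a neural transcription factor (shPAX6, n = 3). No source used here says whether the 3 libraries of a group were separate cultures, so p-values measure only the spread between these libraries, which may be technical. Bulk values also cannot separate a change in RNA per cell from a change in the mix of cells.

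A ribosome reads an mRNA on its small subunit and joins amino acids on its large subunit. Each protein is needed in about the same number of copies, and surplus protein is degraded. Most of the mRNAs begin with a cytosine followed by a run of pyrimidines, the 5′ TOP tract, through which growth signalling by mTOR and the RNA-binding protein LARP1 sets their translation. They are among the most abundant mRNAs of dividing cells.

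The first bases of the mRNAs are shown because this tract is the feature the genes share that the naming rule did not use. Of the 77 annotated starts, 58 (75.3%) were a C followed by at least 4 pyrimidines, against 4.59% of 19894 protein-coding genes. Allowing the tract to begin within 10 bases of the start raised the counts to 73 members (94.8%) and 33.6% of all genes. Each line below gives 10 bases before and 20 bases from the annotated start, in GRCh37, with capitals for the pyrimidine run that begins at the start.
RPLP0, chr12:120638895-120638924, minus strand: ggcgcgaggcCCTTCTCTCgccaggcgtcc
RPS2, chr16:2014808-2014837, minus strand: aggtctcgttCTTCTTTTCCgacaaaacac
RPL14, chr3:40498820-40498849, plus strand: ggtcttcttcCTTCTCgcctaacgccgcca
RPS12, chr6:133135698-133135727, plus strand: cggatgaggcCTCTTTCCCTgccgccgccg
RPL39, chrX:118925574-118925603, minus strand: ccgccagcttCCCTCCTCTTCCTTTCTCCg
RPS27, chr1:153963228-153963257, plus strand: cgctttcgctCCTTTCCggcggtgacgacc
RPL19, chr17:37356526-37356555, plus strand: tctccccttcgcagataatgggaggagccg
RPL23, chr17:37009955-37009984, minus strand: ttcttttttcCggcgttcaagatgtcgaag

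RPLP0 and RPS2 were the most highly expressed members in DU145, RPL14 and RPL19 lay at the ends of the DU145 fold changes, and RPL14 and RPS27 at the ends of the LNCaP ratios. RPL39 has the longest run, of 19 bases. RPL19 and RPL23 have no run of this length at the annotated start, and in both the bases just before it are pyrimidines. Between 250 bases before and 50 bases after the start, on either strand and with overlaps allowed, CCGGAA (a core of ETS factor sites) was found for 43 members (55.8%) and 22.8% of all genes. ATGGCG (a core of YY1 sites) was found for 25 members (32.5%) and 14.6% of all genes. The E-box CACGTG, a site of MYC, was in 5 members (6.49%) and 8.76% of all genes, and TATAAA in 6 members (7.79%) and 9.62%. These are matches of letters and say nothing of binding.

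The samples carried markers of their lines. LNCaP control and ENZ libraries held 8171 and 7894 counts of FOLH1, the prostate-specific membrane antigen, which was at 0 FPKM in the 6 DU145 libraries. The 4 epithelial genes listed were detected in every library of both lines. KRT8 and KRT18, keratins, overlapped between the DU145 groups, whereas CDH1 and EPCAM, adhesion proteins, were lower in every shPAX6 library. CDH1 was at 6.27, 5.23 and 6.91 FPKM in shCON and at 0.654, 1.56 and 1.57 FPKM in shPAX6 (log2 fold change -2.28, limma adjusted p = 0.0334). EPCAM was at 11.7, 11.6 and 11.5 FPKM and at 7.08, 6.75 and 6.71 FPKM (log2 fold change -0.75, limma adjusted p = 0.0537). The part of this difference in the results for the ribosomal protein genes was not tested. The CDH1 call was lost without shCON library 1, 2 or 3 or shPAX6 library 3, with adjusted p from 0.148 to 0.255. The leukocyte gene PTPRC was at 0 FPKM in all DU145 libraries and at 23 and 28 counts in LNCaP. PAX6 was at 0.839, 1.23 and 1.57 FPKM with the control hairpin and at 0.0153, 0.274 and 0.0778 FPKM with the PAX6 hairpin. Every shPAX6 library was below every shCON library, with a log2 fold change of -2.69 (SE 0.49, adjusted p = 0.0539). In LNCaP, PAX6 had 11 counts in the control and 4 in the ENZ library, which does not separate the libraries. The LNCaP libraries held 20468001 and 17945722 counts, and the small nuclear RNA RN7SK took 12.3% and 13.0% of them, although the labels describe poly-A selection. The depth of the DU145 libraries is unknown, because the table holds values per kilobase and library size.

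Ribosomal protein mRNAs took a large part of the summed FPKM in DU145, a measure that weights short transcripts up and is no share of RNA or reads. Their values summed to 70523, 75537 and 66560 FPKM in shCON, and in shPAX6 to 113180, 56922 and 78767 FPKM. They took 14.9% ± 0.71 (SD, n = 3) of all FPKM in shCON and 16.0% ± 3.6 in shPAX6. The shPAX6 libraries lay on both sides of the shCON range: library 1 at 19.8%, library 2 at 12.7% and library 3 at 15.6%.

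The members moved together from library to library, and far more among the shPAX6 libraries than among the shCON libraries. shPAX6 library 1 was the highest of the 6 libraries for 76 of 77 members, and the exception, RPL15, was highest in shPAX6 library 3. Across all 13574 features tested, those averaging 0.5 FPKM or more, 19.7% were highest in shPAX6 library 1. shPAX6 library 2 was the lowest of the shPAX6 libraries for 77 of 77 members, against 34% of all features, and was below every shCON library for 60 members, against 40.5%. Library 1 was above every shCON library for 77 members, against 25.2%, and library 3 for 46 members, against 27.9%. The SD of the log2 values was larger in shPAX6 than in shCON for 77 of 77 members, against 84.3% of all features, with a median SD of 0.53 and 0.12 in the respective groups.

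**Figure D1:**
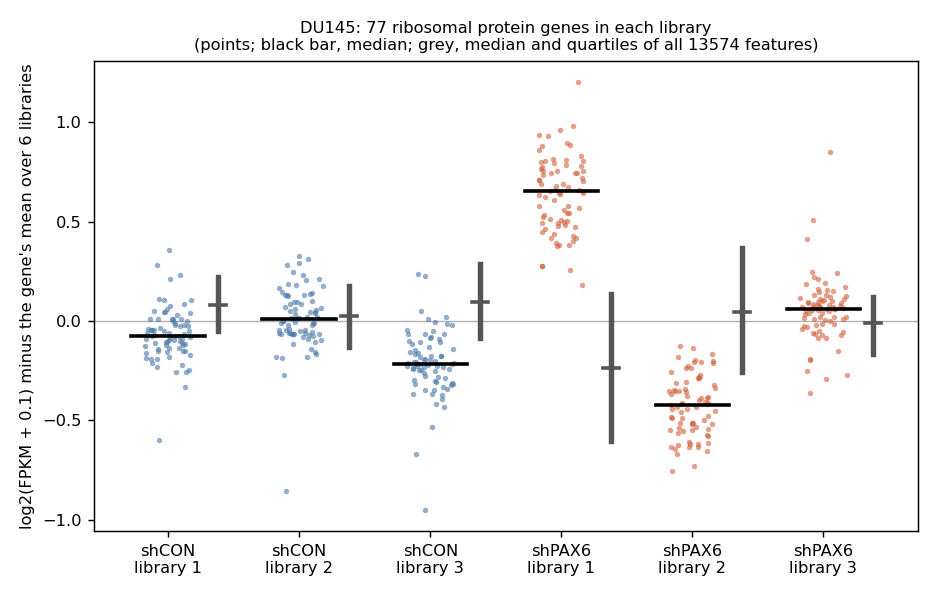
Each point is 1 of 77 ribosomal protein genes, plotted as its log2(FPKM + 0.1) in a DU145 library minus its mean over the 6 libraries. Black bars are member medians, and grey marks the median and quartiles of all 13574 features. The member median was 0.65 in shPAX6 library 1, -0.42 in library 2 and 0.06 in library 3, and the shCON medians were -0.07, 0.01 and -0.21.

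Other properties of the libraries were set beside this pattern. The 78 mitochondrial ribosomal protein genes, which serve a separate ribosome, had median deviations of 0.34, -0.24 and 0.03 in shPAX6 libraries 1, 2 and 3. GAPDH, a glycolytic enzyme, was at 3652, 3945 and 3605 FPKM in shCON and at 5756, 3721 and 4673 FPKM in shPAX6. Within shPAX6 this was the order of the members' medians, but library 2 lay inside the shCON range. EEF1A1, the elongation factor that brings tRNA to the ribosome, was at 3288, 2696 and 2820 FPKM in shCON. Within shPAX6 it was ordered the other way, at 2352, 2756 and 2647 FPKM. The median over all features was lowest in shPAX6 library 1, at 5.58 FPKM against 6.89 to 7.89 FPKM in the other libraries. Over 12009 genes, the deviation in a library was related to transcript length with a Spearman rho of -0.54 in shPAX6 library 1 and 0.56 in shPAX6 library 2, and the members are short, with a median transcript of 1915 bases against 3807 for all features. The part of transcript length in the members' pattern was examined only by the correction described in the closing section.

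The comparison of shPAX6 with shCON asks whether knockdown of PAX6 was accompanied by a change in these mRNAs. In limma's fit across the 13574 features, 0 of 77 members passed an adjusted p of 0.05, against 1.2% of all features (0.177% higher and 1.02% lower). At an unadjusted p under 0.05 there was 1 member, RPL14, which was higher, against 18.3% of all features (4.15% higher). The 2 groups did not overlap for 0 of 77 members, against 26.7% of all features. Fitted log2 fold changes ran from -0.34 to 1.22, with 65 members above 0 and 12 below, and their median was 0.18, against -0.12 for all features, of which 37.1% were above 0. The sign of the member median depended on shPAX6 library 1: without it the median was -0.10 with 23 members above 0, and without shPAX6 library 2 it was 0.42 with 76 above 0. Without library 1 the groups did not overlap for 7 members, 0 of them higher, against 43.4% of all features (17.1% higher), and without library 2 for 46 members, all higher, against 48.9% (14.8% higher). Scaling mattered too, since quantile normalization left 34 members above 0, setting library medians equal 75, correcting for GC content 72 and rescaling to the same sum 55.

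**Figure D2:**
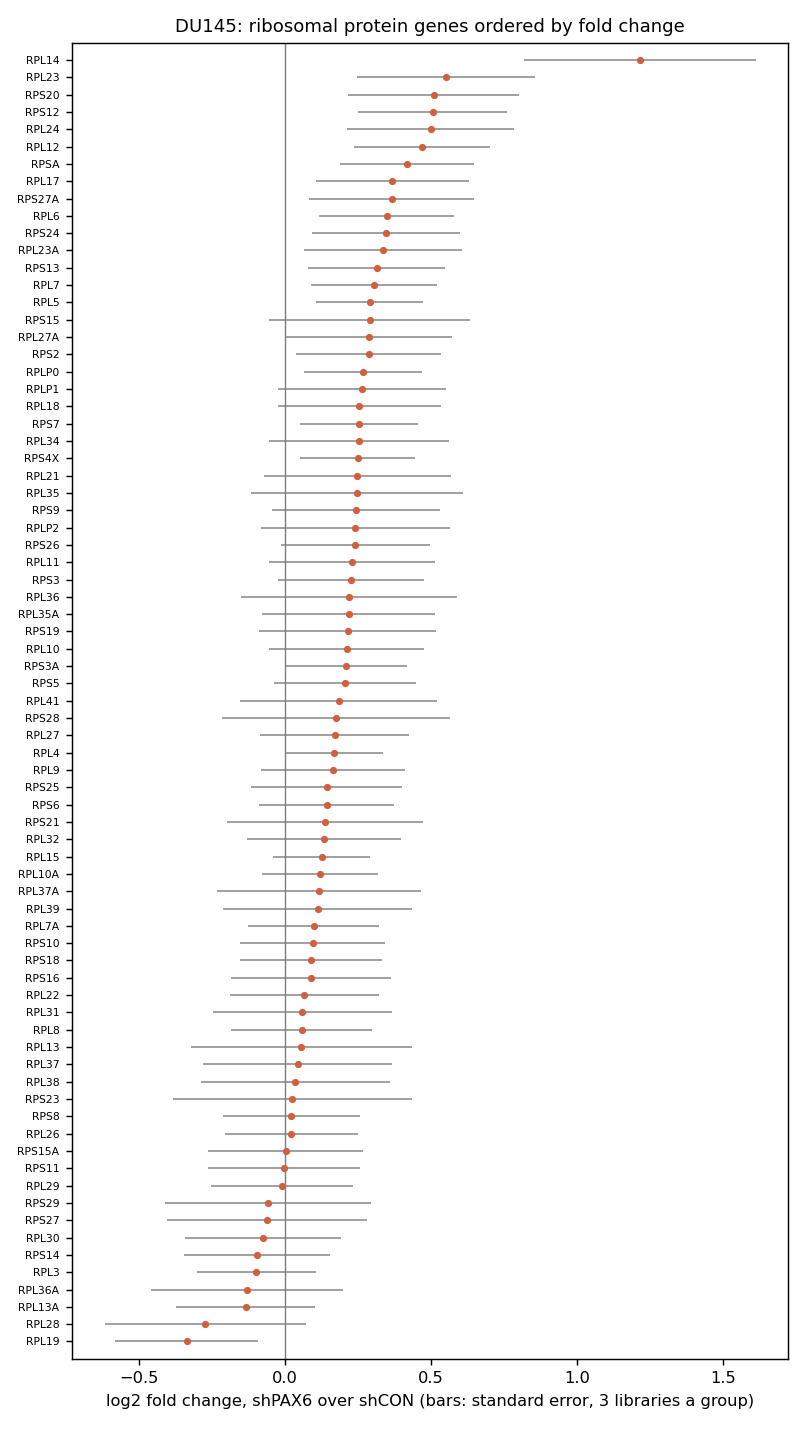
Fitted log2 fold changes of 75 of the 77 ribosomal protein genes in DU145, shPAX6 over shCON, ordered by size, with bars of 1 standard error and 3 libraries a group. RPL14 stands apart at 1.22, and the other members lie between -0.34 and 0.55.

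RPL14, a protein of the large subunit encoded at chr3:40498783-40503863, measured 124, 69.2 and 64.8 FPKM in shCON, and 288, 107 and 226 FPKM in shPAX6. Libraries 1 and 3 of shPAX6 were above all shCON libraries, and library 2 was below shCON library 1. Its log2 fold change in the limma fit was 1.22 (SE 0.40, adjusted p = 0.178, unadjusted p = 0.0167), so it did not pass the adjustment. It was the lowest expressed member in DU145, with a mean of 85.9 ± 32.8 FPKM (SD, n = 3) in shCON. Without shPAX6 library 2, RPL14 and RPL12 were the only members called, 2 of 77, against 903 of 13574 features.

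The next largest increases were in RPL23, RPS20, RPS12 and RPL24. RPL23, which can bind MDM2 when free of the ribosome, was at 498, 381 and 290 FPKM in shCON and at 724, 365 and 655 FPKM in shPAX6, with a log2 fold change of 0.55 (SE 0.30, adjusted p = 0.396). RPS12, of the small subunit, was at 702, 751 and 603 FPKM in shCON and at 1371, 690 and 960 FPKM in shPAX6 (log2 fold change 0.51, adjusted p = 0.354). In both genes shPAX6 library 2 fell inside the shCON range and the other shPAX6 libraries above it. RPS20 and RPL24 had log2 fold changes of 0.51 and 0.50 with adjusted p of 0.418 and 0.414, and the same placing of libraries 1 and 3.

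The largest decreases included those of RPL19, RPL28, RPL13A and RPL36A. RPL19, at the rim of the tunnel through which the new protein leaves, was at 1829, 1875 and 1637 FPKM in shCON and at 1916, 1020 and 1422 FPKM in shPAX6. Library 1 of shPAX6 was again the highest of all, and the other shPAX6 libraries were below every shCON library. The log2 fold change was -0.34 (adjusted p = 0.526). RPL19 was called only with quantile normalization, which called 236 of 13574 features, and with library weights, which called 4569. RPL28 was at 202, 167 and 201 FPKM in shCON and at 281, 102 and 134 FPKM in shPAX6 (log2 fold change -0.27, adjusted p = 0.736). It was called without shPAX6 library 1, a fit that called 920 of 13574 features, and with library weights. The log2 fold changes of RPL13A and RPL36A were -0.14 and -0.13, with adjusted p of 0.821 and 0.882.

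**Figure D3:**
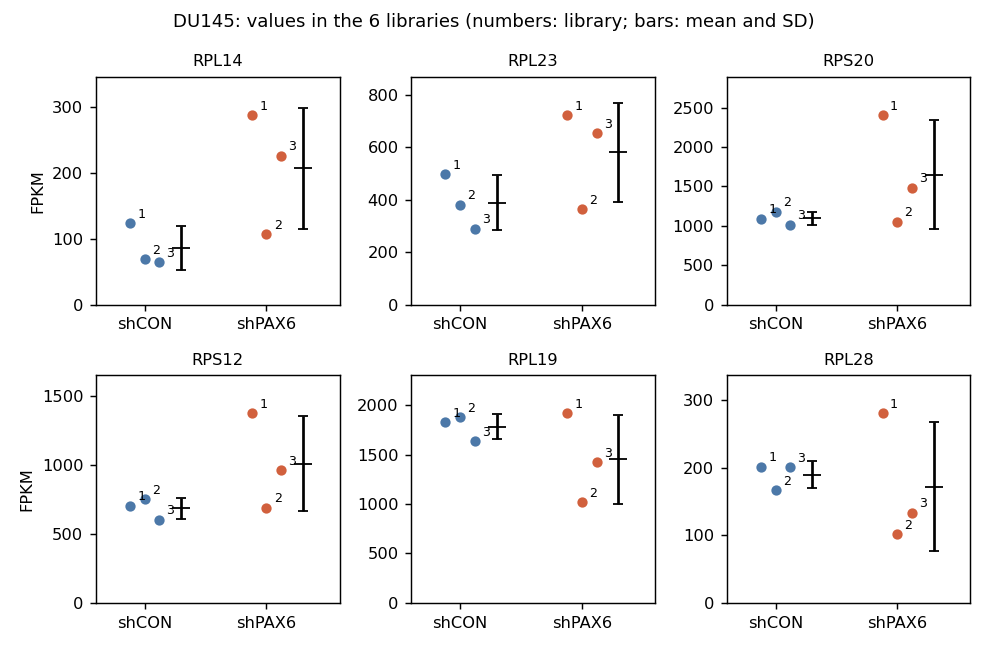
FPKM of 6 ribosomal protein genes in each DU145 library, on axes that start at 0, with the library number beside each point and the mean and SD beside each group (n = 3). In all 6 genes shPAX6 library 1 is the highest, from 281 FPKM for RPL28 to 2408 FPKM for RPS20, and shPAX6 library 2 is the lowest of its group.

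Because the members moved together, each was also expressed relative to the mean log2 value of the 77 genes in its library, a step added after the data were seen. The median SD among shPAX6 libraries was then 0.11, and 0.08 among shCON libraries. On this relative scale 0 members passed the adjustment, and 12 had an unadjusted p under 0.05, 6 in each direction. The same fit gave 6.67% of all features (6.11% lower and 0.567% higher). These shares are no like background for the members, because the centring removes the members' shared spread and raised the median shPAX6 SD of all features from 0.36 to 0.70. It also balances the directions of the members.

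RPL19 had the smallest unadjusted p on the relative scale. Its values relative to the other ribosomal protein genes were 1.40, 1.35 and 1.38 log2 units in shCON and 0.76, 0.92 and 0.91 in shPAX6, a difference of -0.51 (SE 0.08, adjusted p = 0.144). RPS12 went the other way, at 0.01, 0.03 and -0.06 in shCON and 0.28, 0.35 and 0.35 in shPAX6, a difference of 0.33 (adjusted p = 0.554). The 2 groups were apart for both genes, yet neither difference passed the adjustment. RPL13A, RPS14, RPL3 and RPL30 were among the other members with a relative decrease at an unadjusted p under 0.05, and RPL14, RPS20, RPL24, RPL12 and RPSA the other members with a relative increase.

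Grouped by role, the members of the P-stalk, MDM2-binding, Diamond-Blackfan and X-linked groups gave 0 calls in limma, against 1.2% of all features. At an unadjusted p under 0.05 there were also 0, against 18.3%. All 3 proteins of the P-stalk, which recruits the GTPases of translation, had fold changes above 0: RPLP0 0.27, RPLP1 0.26 and RPLP2 0.24 on the log2 scale. RPL5 and RPL11, which carry the 5S RNA and bind MDM2 like RPL23, were at 0.29 and 0.23. Of 9 genes mutated in Diamond-Blackfan anaemia, a failure of red cell production, 8 were above 0, from 0.09 for RPS10 to 0.35 for RPS24. The X-linked members were at 0.25 for RPS4X, 0.21 for RPL10, 0.11 for RPL39 and -0.13 for RPL36A. The median log2 fold changes were 0.21 for the small and 0.17 for the large subunit.

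In LNCaP the 77 genes summed to 901753 of the control counts, 4.41% (95% Wilson interval 4.40 to 4.41), and to 894220 of the ENZ counts, 4.98% (4.97 to 4.99). In TPM, which weights short genes up, they took 5.06% and 5.39%, while RN7SK alone took 38.8% and 38.5%. Leaving out RN7SK and 4 other structural RNAs from the total, the members took 5.38% and 6.15% of the counts. Intervals cover counting error only, since each arm is 1 library and no difference between the arms has a replicate check.

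The question in LNCaP is whether cells kept with enzalutamide differed in these mRNAs. Relative to the library total, 65 of 77 members were higher in the ENZ library and 12 lower, against 37.7% of 14767 genes that were higher and averaged 1 CPM or more, where CPM is the count scaled to the library total. The member median log2 ratio of CPM + 0.1 was 0.18, and that of the 14767 genes was -0.15. Relative to the latter, 75 of 77 members were higher, against 50% by definition, and only RPL14 and RPL23A were lower. The split was 52 to 25 in TPM and 75 to 2 with edgeR's TMM factors. Relative to the library total, no member passed a 1.5-fold difference in either direction, against 6.49% of the 14767 genes that were higher and 24.1% that were lower. With TMM factors 6 members were past 1.5-fold higher and 0 lower, against 10.8% and 17.7% of all genes. With the median of the 14767 genes set to 0 these counts were 7 and 0, against 11.3% and 17.4%. The interval of counting error lay above 0 for 58 members and below 0 for 7.

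**Figure D4:**
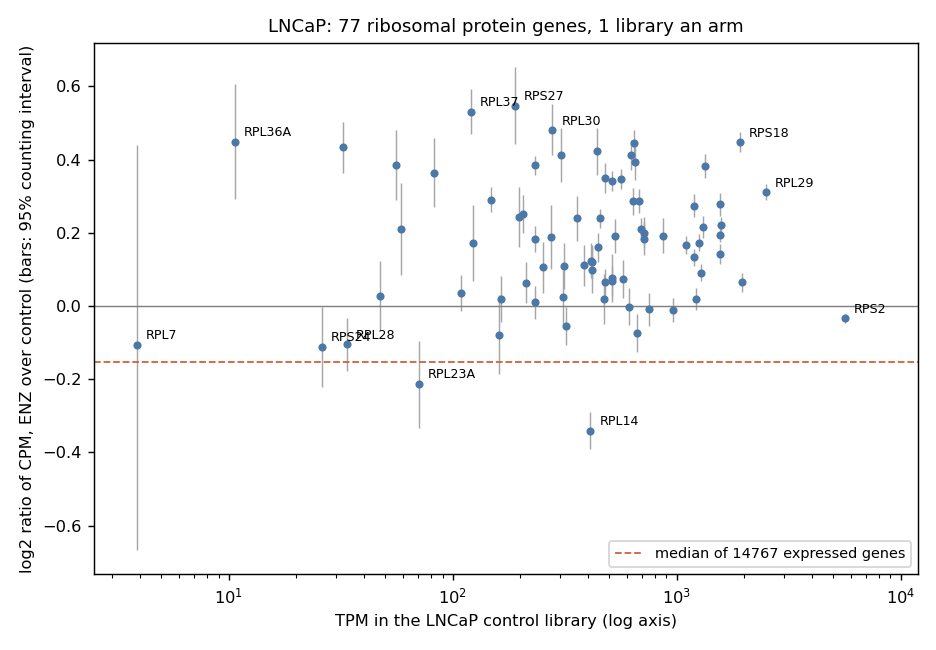
Log2 ratio of CPM in LNCaP, ENZ over control, of the 77 ribosomal protein genes against their TPM in the control library on a log axis, with 95% counting intervals and 1 library an arm. Most members lie above 0 and above the median of expressed genes at -0.15 (dashed), and RPL14 is the lowest at -0.34.

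The largest increases in the ENZ library were led by RPS27 and RPL37, a pair of small zinc-binding proteins of the small and the large subunit. RPS27 had 1307 counts in the control and 1675 in the ENZ library, a log2 ratio of 0.55 (95% Clopper-Pearson interval 0.44 to 0.65). RPL37 had 3701 and 4689 counts (0.53, 0.47 to 0.59). RPL30, RPL36A and RPS18 followed at 0.48, 0.45 and 0.45. These 5 members were higher in TPM and with TMM factors as well.

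The lowest ratios were those of RPL14 and RPL23A. RPL14 had 7807 counts in the control and 5405 in the ENZ library, a log2 ratio of -0.34 (-0.39 to -0.29). RPL23A, which docks the signal recognition particle at the tunnel exit, had 1346 and 1018 counts, a ratio of -0.21 (-0.33 to -0.09). Its 27 listed pseudogenes held 275 and 219 counts. RPL14 and RPL23A were lower on every scale tried. RPS24, RPL7 and RPL28 were next at -0.11, -0.11 and -0.10, and all 3 turned positive with TMM factors. RPL7 had 64 and 52 counts, and its interval of -0.67 to 0.44 includes 0.

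By role, the P-stalk genes RPLP0, RPLP1 and RPLP2 had log2 ratios of 0.19, 0.10 and -0.08 in LNCaP. The MDM2-binding proteins RPL23, RPL11 and RPL5 were at 0.24, 0.17 and -0.05. All 4 X-linked members were higher, from 0.24 for RPL10 to 0.45 for RPL36A. Of the 9 Diamond-Blackfan genes, 7 were higher, RPS19 among them at 0.36, and RPS24 was lowest at -0.11. The medians of the small and large subunits were 0.17 and 0.19.

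Levels per length differed widely between members, from 3.90 to 5650 TPM in the LNCaP control and from means of 85.9 to 2929 FPKM in DU145 shCON. In the LNCaP control, RPS2 was highest at 5650 TPM and held 11.6% of all ribosomal protein counts, and RPL29 at 2505, RPS18 at 1920 and RPL7A at 1571 TPM were also among the 5 highest. RPL7 was lowest at 3.90 TPM, then RPL36A at 10.7, RPS24 at 26.1, RPL27A at 32.2 and RPL28 at 33.6 TPM. Gene lengths behind these TPM were 942 bases for RPS2 and 5185 and 4879 bases for RPL28 and RPL27A, so the length assigned to a gene sets part of this order.

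In DU145 shCON, RPLP0 (2929 FPKM ± 115, SD, n = 3) and RPS2 (2865 ± 318) overlapped at the top, followed by RPL8 at 2621, RPL7A at 2458 and RPL41 at 2315 FPKM. Above RPL14, the lowest were RPL37A at 111, RPL37 at 134, RPL22 at 138 and RPL31 at 155 FPKM. RPL7, the lowest member in LNCaP, was at 870, 866 and 719 FPKM in the shCON libraries. Across the 77 genes, the order of LNCaP TPM and DU145 FPKM was related with a Spearman rho of 0.48, and RPL7A, RPLP0, RPS18 and RPS2 were among the 10 highest of both tables. The tables come from different quantification, so levels are not comparable between lines gene by gene.

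Shared sequence may limit these levels, which was not tested. The LNCaP table lists 1224 genes named as pseudogenes of the members, and they held 6953 control counts in all, beside 901753 of the members. RPL7 has 44 of them, with 50 control counts beside its own 64. The pseudogenes of RPS28 held 1437 control counts beside 3846 of the gene, and those of RPL23A 275 beside 1346. RPS10 had 7115 control counts while the overlapping readthrough gene RPS10-NUDT3 had 7485. RPL17 had 10107 beside 5046 for RPL17-C18orf32, and RPL36A had 608 beside 636 for RPL36A-HNRNPH2. Values of RPL7, RPS28, RPL23A, RPS10, RPL17 and RPL36A are therefore uncertain, and how reads with several matches were counted is not given in the sources used here.

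The LNCaP and DU145 directions of each member were set side by side. Both were above 0 for 54 members and both below 0 for 1, RPL28. Across the 77 genes the Spearman rho between the LNCaP log2 ratio and the DU145 log2 fold change was -0.38. RPL14 was the extreme of both, lowest in the ENZ library of LNCaP and highest in shPAX6 of DU145. The points share the libraries of each line and are no independent replicates.

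**Figure D5:**
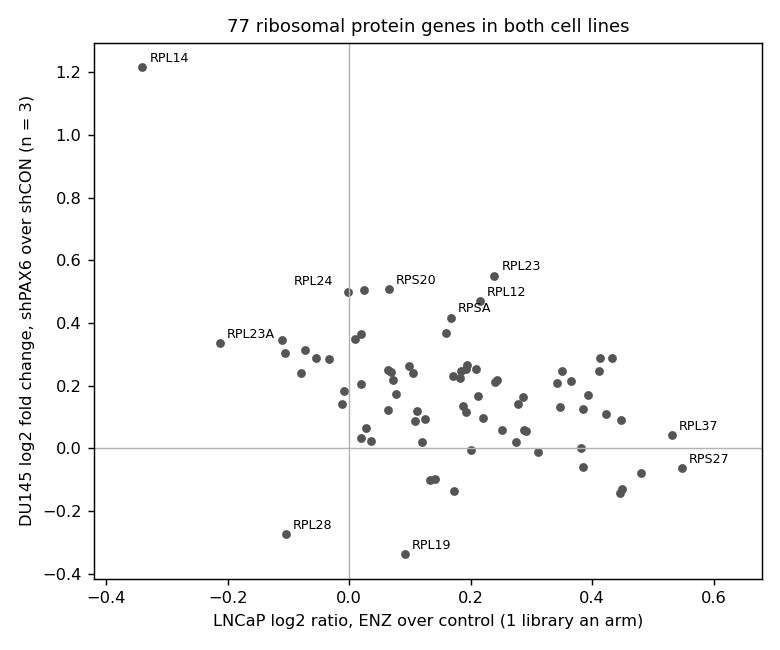
DU145 log2 fold change (shPAX6 over shCON, n = 3) against LNCaP log2 ratio (ENZ over control, 1 library an arm) for the 77 ribosomal protein genes. RPL14 lies alone at the upper left, at -0.34 in LNCaP and 1.22 in DU145, and 54 members lie in the quadrant where both are above 0.

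Members with and without the tract at the start were also compared, with no test. The 58 genes with it had a median DU145 log2 fold change of 0.21 and a median LNCaP log2 ratio of 0.17, and the 19 without it had 0.17 and 0.21.

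Companion genes of the ribosome were taken from lists fixed by function. In DU145, FAU, whose product is a fusion of a ubiquitin-like and a ribosomal protein, had a log2 fold change of 0.13 (adjusted p = 0.842). In LNCaP its log2 ratio was 0.10. Of 6 paralogs tested with limma in DU145, 0 passed, against 1.2% of all features, and 0 had an unadjusted p under 0.05, against 18.3%. Their log2 fold changes were -0.28 for RPL26L1, -0.19 for RPL7L1, 0.31 for RPL39L, 0.33 for RPS27L, 0.45 for RPL36AL and 0.54 for RPL22L1. RPL39L, a paralog of RPL39, was at 67.4, 64.6 and 58.5 FPKM in shCON and at 112, 56.6 and 76.2 FPKM in shPAX6, whereas LNCaP held 2 counts in the control and 1 in the ENZ library, at or under the floor of 3 counts. RPS27L, a target of p53, had 717 and 402 counts in LNCaP (log2 ratio -0.64). It was the 1 paralog of 6 past 1.5-fold, and 24.1% of the 14767 genes were past 1.5-fold lower. The other LNCaP log2 ratios were 0.34 for RPL22L1, 0.13 for RPL26L1, -0.28 for RPL36AL and 0.43 for RPL10L, a near copy of RPL10 whose 86 and 102 counts are uncertain for that reason.

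Among 9 factors acting on ribosomal protein genes or mRNAs that were tested in DU145, 1 passed the adjustment, against 1.2% of all features. RPS6KB2, an S6 kinase of the family that phosphorylates RPS6, was at 53.6, 56.1 and 60.0 FPKM in shCON and at 27.0, 17.3 and 19.2 FPKM in shPAX6. Every shPAX6 library was below every shCON library, with a log2 fold change of -1.44 (SE 0.18, adjusted p = 0.0227). The call was lost without shCON library 1, 2 or 3 or shPAX6 library 3, with limma adjusted p of 0.152, 0.179, 0.218 and 0.156, and held without shPAX6 library 1 or 2. Its relative RPS6KB1 was at 0.07 and LARP1 at -0.35 (adjusted p = 0.933 and 0.532). EIF4EBP1, a target of mTOR, was at 0.18, and MYC, an activator of ribosome production, at 0.18. The factors GABPA, SP1, YY1 and ZBTB7A were at -0.07, -0.34, -0.13 and -0.48, none passing the adjustment. In LNCaP, 2 of 9 tested were past 1.5-fold lower and 0 higher, against 24.1% and 6.49% of the 14767 genes. The 2 were RPS6KB1 (537 and 256 counts) at -0.87 and GABPA (404 and 209) at -0.76, and RPS6KB2 was at 0.13. MYC had 17480 and 15968 counts (0.06), LARP1 was at 0.24, EIF4EBP1 at 0.17, SP1 at -0.36, YY1 at -0.27 and ZBTB7A at 0.06, and MYCN had 0 counts in both libraries.

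A list of 17 translation factors and other genes known for the same tract was also examined. The tract was not checked in their sequences here. In DU145, limma called 0 of 17, against 1.2% of all features, and 0 had an unadjusted p under 0.05, against 18.3%. NACA and HNRNPA1 were highest at 0.34 and 0.27, and EIF4B and EIF3L lowest at -0.31 and -0.19. In LNCaP, 3 of the 17 were past 1.5-fold lower and 0 higher, against 24.1% and 6.49% of the 14767 genes. NAP1L1, a histone chaperone, had 9004 and 2736 counts (log2 ratio -1.53), and EIF3H 3346 and 1646 (-0.83), while EEF1B2 (0.54) and EEF1G (0.23) were highest.

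Genes of ribosome assembly and RNA polymerase I were examined next. In DU145, 0 of 48 passed the adjustment in limma, against 1.2% of all features. At an unadjusted p under 0.05 there were 10, 8 higher and 2 lower, against 18.3% of all features (4.15% higher). The groups did not overlap for 15 of 48, against 26.7%. NOP56, a core protein of small nucleolar particles, was at 82.7, 86.7 and 78.1 FPKM in shCON and at 151, 106 and 126 FPKM in shPAX6 (log2 fold change 0.61, adjusted p = 0.105). NOP58, its partner, was at 0.54 (adjusted p = 0.0875), and NAT10 and NOP14 were lowest at -0.56 and -0.56. In LNCaP, 15 of 48 were past 1.5-fold higher and 4 lower, against 6.49% and 24.1% of the 14767 genes. RRP12 had 1275 and 2334 counts (1.06) and POLR1C 461 and 837 (1.05), and RIOK2 and WDR43 were lowest at -0.90 and -0.75.

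The remaining lists were described by counts. Of 10 host transcripts of small nucleolar RNAs, measured in LNCaP only, 8 were higher in the ENZ library and 3 past 1.5-fold higher, against 6.49% of the 14767 genes, led by SNHG12 (38 and 113 counts, log2 ratio 1.71) and SNHG8 (0.65), with SNHG16 lowest at -0.53. Of the 78 mitochondrial ribosomal protein genes, 0 passed limma in DU145, against 1.2% of all features, and 2 had an unadjusted p under 0.05, against 18.3%. MRPL52 and MRPL48 were highest at 0.61 and 0.47 and MRPS17 and MRPL49 lowest at -0.52 and -0.36. In LNCaP, 7 of the 78 were past 1.5-fold higher and 3 lower, against 6.49% and 24.1% of the 14767 genes, from MRPL34 (0.84) and MRPL54 (0.83) to MRPS36 (-0.77) and MRPL42 (-0.63).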

How the data were processed

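RNA-seq tables of LNCaP (1 control and 1 ENZ library) and DU145 (3 shCON and 3 shPAX6 libraries) were analysed, and samples were grouped by their labels. The 6 ATAC-seq samples were not used here. The study's methods give alignment to GRCh37 with HISAT2 and quantification with StringTie; the labels describe another library kit and read length. The methods state 3 replicates, whereas the labels give 1 library for each LNCaP arm. The authors deposited raw counts per gene and TPM for LNCaP, and these TPM equal counts over gene length, rescaled to a fixed sum. The counter is not given in the sources used here. The authors deposited DU145 values without naming the unit, and they were treated as FPKM from StringTie.

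The members and the gene lists were chosen with earlier results of these data known, although the naming rule of the members uses no measured value. DU145 values were tested with limma (lmFit, eBayes with trend) on log2(FPKM + 0.1) over the 13574 features that averaged 0.5 FPKM or more, all 77 members among them, with Benjamini-Hochberg adjustment over all features, two-sided, at 0.05. Fold changes are on that scale. LNCaP counts were divided by the library totals of 20468001 and 17945722, which set the precision, and ratios of CPM + 0.1 were given with 95% Clopper-Pearson intervals and no test. Called in LNCaP means past 1.5-fold among genes that averaged 1 CPM or more. GC content and length came from the longest transcript of GENCODE release 44 lifted to GRCh37 (12009 of 13574 features, all 77 members), and start sites from its canonical transcripts. RefSeq promoters on another build were available for all 77 members, and 56 of the 73 windows compared lay within them. Alternatives covered pseudocounts, filters, scalings, library weights, a replicate block, GC and length corrections and each library left out. The fit was tested on simulated data.

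Genes named are PAX6, the 5 largest increases and decreases and the 5 highest and lowest levels of each table, the members of 4 role groups, the paralogs, fusions and regulators, and the 2 largest changes each way of the other lists. RPL12, RPSA, RPL15, RPS14, RPL3, the overlapping readthrough genes, RPS28, RN7SK, CDH1, EPCAM, GAPDH and EEF1A1 were named after their values were seen. Some genes that this rule covers are not reported here. Software was R, limma and edgeR, and Python with pandas, numpy and scipy.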

Additional observations from a re-analysis of the deposited data

How the results depend on the processing

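With 1 library an arm in LNCaP and 3 a group in DU145, the DU145 spread is set by shPAX6 libraries 1 and 2, and depth is known only for LNCaP. The count of members at an adjusted p under 0.05 in DU145 was 0 in the main fit, which called 163 features in all. It was 1 with quantile normalization (RPL19, 236 features in all) and 1 after correction for transcript length (RPS12, 911 of 12009). It was 14 with library weights, which called 4569 features in all. These weights were 5.74 for shPAX6 library 3 and 0.16 and 0.27 for shPAX6 libraries 1 and 2. Leaving out each library gave 0 to 2 members. There was 1 without shPAX6 library 1 (920 features in all) and 2 without shPAX6 library 2 (903). The count at an unadjusted p under 0.05 was 1 of 77, against 2480 of 13574 features. It was 0 without a filter on low values (3368 of 24199 features), 10 with quantile normalization (2662 of 13574) and 5 after rescaling to the same sum (2293). It was 2 when that sum left out the members (2449 features) and 25 with library weights (6154). After GC correction it was 2 and after length correction 14 (2264 and 3275 of 12009 features). Relative to the members' own mean it was 12 (906 of 13574). With each library left out it ran from 0 to 38, the latter without shPAX6 library 2 (4273 features). The median log2 fold change of 0.18 became -0.019 with quantile normalization, 0.35 with library medians set equal, 0.09 after rescaling to the same sum, 0.11 when that sum left out the members, 0.31 after GC correction and 0.26 after length correction, and ran from -0.10 to 0.42 with each library left out (-0.10 without shPAX6 library 1). The members whose groups did not overlap numbered 0, and 0 to 46 with each library left out, 46 of 77 without shPAX6 library 2, against 48.9% of all features. The cause of these differences was not tested. Fitted with a replicate block, the adjusted count was 0, the unadjusted count 1 and the median 0.18, and with GC correction added 0, 1 and 0.31; in all features the block took the calls from 163 to 0. Same-numbered libraries correlated at -0.17, -0.37 and 0.05 once group means were removed. With 3 libraries a group, this cannot tell whether the numbers pair the libraries. The block changed no call of a member. In LNCaP the median log2 ratio of 0.18 was 0.34 with the median of expressed genes set to 0, 0.33 with TMM factors, 0.10 in TPM, 0.22 without the 10 most counted genes and 0.19 with the members left out of the total. The count of members past 1.5-fold, 0 relative to the total and in TPM, was 6 with TMM factors and 7 with that median set to 0, settings added for this count after the data were seen.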
